A study of Mus musculus with 4 samples.

Results

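A set of 8 genes that encode scaffold proteins of the excitatory postsynapse was followed in hippocampal nuclei: Homer2, Homer3, Shank1, Shank2, Shank3, Dlg2, Dlg4 and Dlgap1. They were chosen by name, with earlier results of these data known, and are 8 of the 56748 gene IDs counted in each nucleus. Each was read as UMIs (unique molecular identifiers, each marking a captured RNA molecule) scaled to the class total (CPM) in neuron classes defined by marker genes. All 8 passed the filter on low counts in every class.

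Single-nucleus RNA sequencing was performed on hippocampi from male mice in 2 experiments, each with and without repeated social defeat (RSD). In RSD a CD-1 aggressor was placed in the home cage for 2 h on 6 consecutive nights, control mice were left undisturbed, and nuclei were collected 14 h later. In the diet experiment, C57BL/6 mice of 5 to 7 weeks received AIN-76A chow (Con-Veh, Stress-Veh) or the same chow with PLX5622 at 1200 mg/kg (Con-PLX, Stress-PLX) from 7 days before RSD to deplete microglia. In the genotype experiment, IL-1R1+/+ mice without Cre (Con-IL-1R1+/+, Stress-IL-1R1+/+) were compared with Vglut2+/IL-1R1-/- mice that carry Cre (Con-nIL-1R1-/-, Stress-nIL-1R1-/-). Vglut2 marks glutamatergic neurons, so the deletion was directed to those cells. The ages of the mice in the genotype experiment were not given in the sources used here. Each of the 8 conditions was 1 pool of hippocampi from 3 mice, so the pool is the replicate and the spread among mice within a pool cannot be seen. All 8 pools were barcoded together and sequenced in 4 sublibraries, each of which held nuclei of every pool.

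At an excitatory synapse, glutamate receptors are held in the postsynaptic density by layers of scaffold proteins. Dlg4 (PSD-95) and Dlg2 (PSD-93) are membrane-associated guanylate kinases that bind receptor tails at the membrane. Dlgap1 (GKAP) links them to the Shank proteins beneath, and Homer proteins join the Shanks to group I metabotropic glutamate receptors. In the hippocampus these proteins shape spine size and receptor content, both of which are altered by activity.

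The files held 57350 nuclei, of which 56834 with at most 20% mitochondrial UMIs were kept, carrying 217534776 UMIs. Median UMIs per nucleus were 598 and 628 in Con-PLX and Stress-PLX and from 1325.5 to 5012 in the other 6 pools. Of well barcodes, 3082 occurred in more than 1 sublibrary, and none of the barcodes combined with its sublibrary occurred in more than 1 pool. Clustering gave 10447 DG-like, 6098 CA1-like, 4593 CA2/3-like, 5787 INH-like (inhibitory) and 3698 other excitatory-like nuclei, and a further 16782 nuclei stayed unnamed. The summed DG markers, led by Prox1, stood at 2797 to 4493 CPM in DG-like nuclei and 241 to 305 CPM in CA1-like nuclei of the 8 pools. DG-like nuclei also carried 2027 to 2786 CPM of the INH marker list, against 12642 to 18603 CPM in INH-like nuclei. Microglia-like nuclei numbered 10 and 8 in Con-PLX and Stress-PLX and 129 to 187 in the other pools. Il1r1, the deleted gene, stood in DG-like nuclei at 62.0 CPM (Con-IL-1R1+/+), 11.2 CPM (Con-nIL-1R1-/-), 29.5 CPM (Stress-IL-1R1+/+) and 9.06 CPM (Stress-nIL-1R1-/-), so both pools labelled nIL-1R1-/- were lower.

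On GRCm39, Homer2 lies at chr7:81250229-81357275 on the minus strand. The other members lie on the plus strand: Homer3 at chr8:70735477-70747025, Shank1 at chr7:43959615-44009996, Shank2 at chr7:143532669-143979779, Shank3 at chr15:89383826-89444464, Dlg2 at chr7:90125880-92098455, Dlg4 at chr11:69907768-69938348 and Dlgap1 at chr17:70275873-71128409. All are annotated as protein coding. Spans ran from 11.5 kb for Homer3 to 1973 kb for Dlg2, and introns make up most of each span, which matters in nuclei because unspliced RNA is counted too. Homer3 overlaps the opposite-strand gene Ddx49 by 1947 bases, and Ddx49 had 4443 UMIs over all nuclei against 2976 for Homer3. Whether counting used the strand was not given in the sources used here, so Homer3 values are uncertain in that respect. The top overlapping gene of each other member with an overlap had at most 1.42% of that member's UMIs, and Dlg4 overlapped none.

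The 250 bases upstream of the annotated start are shown for Homer3 and for the first of 3 listed starts of Dlg2. These were the members with the largest higher and lower fitted RSD differences in CA1-like nuclei. That Dlg2 start lies inside the gene, so its window is not upstream of the whole span. RefSeq's promoter table (GRCm38.p6) held 12 starts for 6 of the 8 members. Capitals mark the GC box GGGCGG on either strand.
Homer3, chr8:70282749-70282998, plus strand: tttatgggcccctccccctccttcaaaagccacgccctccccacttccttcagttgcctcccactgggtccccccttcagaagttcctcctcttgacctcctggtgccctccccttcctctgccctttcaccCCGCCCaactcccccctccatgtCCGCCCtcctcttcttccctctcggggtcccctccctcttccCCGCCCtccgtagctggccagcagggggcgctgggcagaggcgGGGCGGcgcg
Dlg2, chr7:91090536-91090785, plus strand: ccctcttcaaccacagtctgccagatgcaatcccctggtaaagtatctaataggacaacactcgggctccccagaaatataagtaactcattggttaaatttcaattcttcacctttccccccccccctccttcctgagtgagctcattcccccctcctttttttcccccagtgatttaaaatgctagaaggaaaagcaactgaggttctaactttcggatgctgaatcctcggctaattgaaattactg
The Homer3 window was 68% G and C and held 4 GC boxes, and the Dlg2 window was 45.2% G and C and held none. Of 32851 promoters of this length, 32.7% held a GC box and the median G and C content was 52.4%. Neither window held TGACG, part of the cyclic AMP response element, or AGAACA, the core of a glucocorticoid response element, which 17.8% and 16.1% of promoters held on either strand. A match or its lack describes these letters only.

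Levels across neuron classes are given first, as means over the 8 pools with the SD, and carry no test because the classes were made from the same nuclei. The members were left out of the genes used for clustering.

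Homer2 and Homer3, the adaptors, were the members with the most unequal levels among classes. Homer2 had its highest mean in CA1-like nuclei, at 174 CPM ± 24.7 (SD, n = 8), followed by INH-like (123 CPM), CA2/3-like (89.2 CPM), other excitatory-like (53.0 CPM) and DG-like nuclei (41.5 CPM). CA1-like nuclei were 4.18-fold above DG-like nuclei and their ranges did not overlap. CA1-like and INH-like nuclei, neighbours in that order, overlapped in range although CA1-like nuclei were higher in 8 of 8 pools. Homer3 was low in 4 of the 5 classes but had 54.5 CPM ± 17.5 (SD, n = 8) in CA2/3-like nuclei, 4.90-fold above CA1-like nuclei at 11.1 CPM, with no overlap and the same order in 8 of 8 pools. DG-like nuclei (10.6 CPM) could not be separated from CA1-like nuclei, being the lower in 4 of 8 pools. Homer3 in other excitatory-like (5.00 CPM) and INH-like nuclei (3.39 CPM) lay below the 10.3 CPM of oligodendrocyte-like nuclei. Its levels in DG-like and CA1-like nuclei were near that value. Whether such low levels are background was not tested.

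The Shank scaffolds, which tie the density to the actin cytoskeleton, differed in which class led. Shank1 had its highest mean in CA1-like nuclei, at 1053 CPM ± 270 (SD, n = 8), and its lowest in DG-like nuclei, at 455 CPM ± 97.6, a ratio of 2.31 with no overlap. Shank2 also led in CA1-like nuclei, at 834 CPM ± 143, with CA2/3-like nuclei next at 777 CPM and overlapping, and was lowest in INH-like nuclei, at 385 CPM ± 59.6. Shank3 was highest in CA2/3-like nuclei, at 156 CPM ± 18.8, and spanned only 1.48-fold down to DG-like nuclei, at 105 CPM.

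The make-up of the family therefore differed by class. In DG-like nuclei Shank2 gave 50.8% ± 2.54 (SD, n = 8) of all Shank UMIs and Shank1 39.8% ± 3.57. In CA1-like nuclei the order was turned round, with Shank1 at 51.7% ± 2.98 and Shank2 at 41.6% ± 2.87, and the ranges over pools did not overlap between the classes for either gene. Shank3 gave 6.69% in CA1-like nuclei and 10.6% in INH-like nuclei. Outside the neurons, Shank3 reached 535 CPM ± 168 (SD, n = 8) in endothelial-like nuclei, above every neuron class, while Shank1 had 171 CPM there.

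The guanylate kinase Dlg2 was close to even among the 5 classes, from 6394 CPM ± 787 (SD, n = 8) in DG-like to 5496 CPM ± 555 in INH-like nuclei, a ratio of 1.16 with overlapping ranges. Its paralogue Dlg4 ran from 267 CPM ± 52.5 in CA1-like to 128 CPM ± 22.6 in INH-like nuclei, with no overlap. Dlgap1 had nearly the same mean in DG-like (6105 CPM) and CA1-like nuclei (6104 CPM), 4136 CPM in CA2/3-like and 2660 CPM ± 390 in other excitatory-like nuclei, which lay below the other 4 of these classes without overlap. Oligodendrocyte-like nuclei had 2735 CPM of Dlg2 and 1164 CPM of Dlgap1. The levels in DG-like and CA1-like nuclei exceeded these by a smaller factor for Dlg2 than for Dlgap1.

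Between genes, levels were compared per kilobase in CA1-like nuclei. Per kilobase of gene span, Shank1 had the highest density at 20.9 CPM, followed by Dlg4 at 8.72, Dlgap1 at 7.16, Dlg2 at 3.17, Shank3 at 2.19, Shank2 at 1.87, Homer2 at 1.62 and Homer3 at 0.964 CPM. Per kilobase of exon the order was different, with Dlg2 at 350 CPM and Dlgap1 at 317 CPM ahead of Shank1 at 99.5 CPM and Dlg4 at 20.1 CPM. The choice of length thus moved Dlg2 to the top of the order, and neither scale is a measure of mature mRNA in nuclei.

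**Figure D1:**
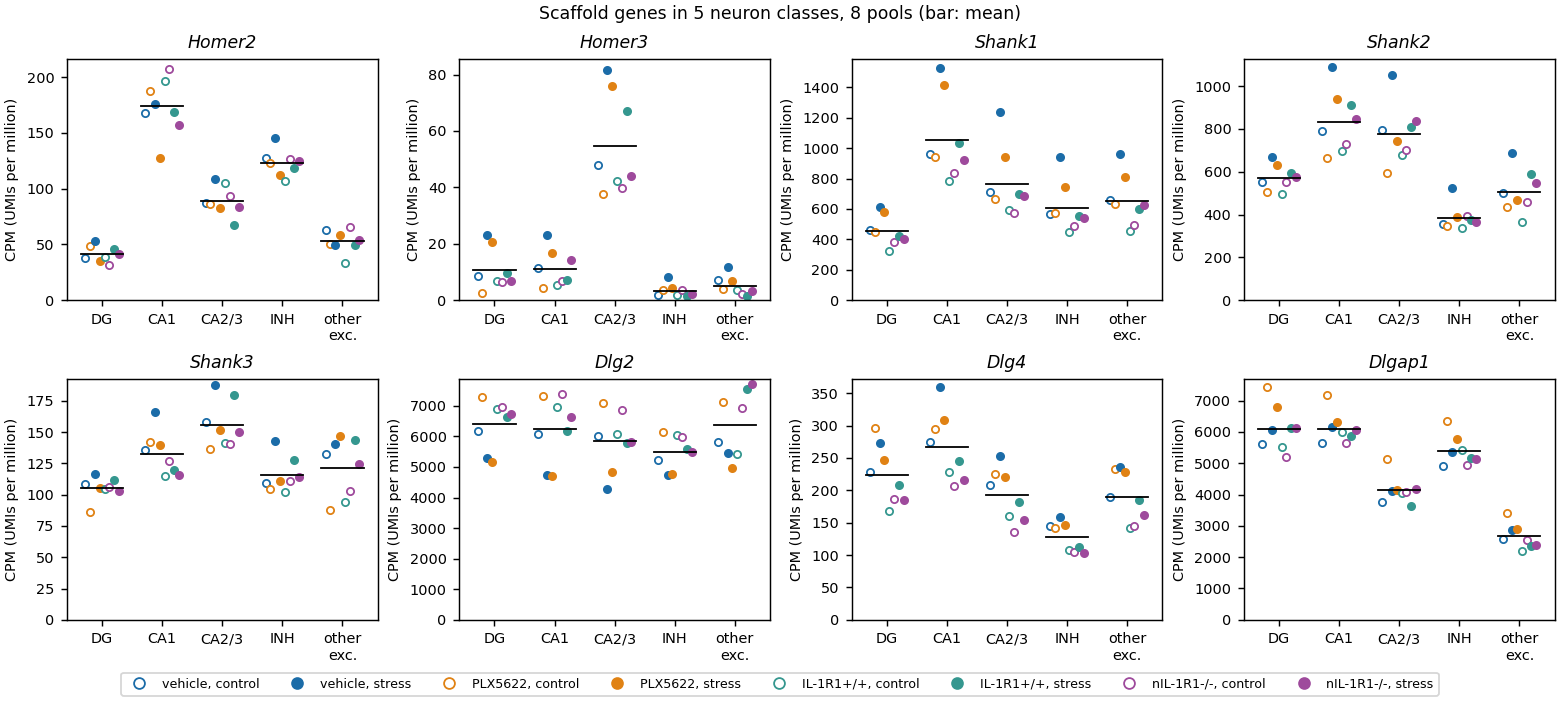
CPM of each scaffold gene (y axis, from 0, with a different scale in each panel) in 5 neuron classes (x axis); each point is 1 of 8 pools, open for control and filled for stress, coloured by pair, and the bar is the mean. Homer3 stands apart in CA2/3-like nuclei, with a mean of 54.5 CPM against at most 11.1 CPM in the other 4 classes, and Dlg2 is nearly even among the 5.

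Stress was then compared with control. RSD was tested in each class with edgeR's quasi-likelihood test with a term for each of the 4 pairs of pools that share a diet or genotype (named vehicle, PLX5622, IL-1R1+/+ and nIL-1R1-/- here), with Benjamini-Hochberg adjustment over all genes tested in the class. No member passed an adjusted p of 0.05 in any class. Among all genes tested, 0.0765% passed in DG-like, 0.0898% in CA1-like, 0.498% in CA2/3-like, 0.0314% in INH-like and 1.83% in other excitatory-like nuclei, and 0.0106% in all neurons together. At an unadjusted p under 0.05, the members numbered 2, 5, 4, 1 and 3 of 8 in the 5 classes in that order and 3 in all neurons, against 11.7%, 14.8%, 15.0%, 8.4%, 13.9% and 13.4% of all genes. With DESeq2 in place of edgeR, 1 member passed in CA2/3-like nuclei (Shank1, adjusted p = 0.0488) and none in the other classes. The median fitted log2 fold change of the members was 0.14 in DG-like, 0.08 in CA1-like, 0.17 in CA2/3-like, 0.11 in INH-like and 0.29 in other excitatory-like nuclei, where the median of all genes lay between -0.00468 and 0.00644. Because the members were chosen with earlier results of these data known, these comparisons with all genes are a description and not an independent test. The pools of a pair shared diet or genotype. Each condition was 1 pool of 3 mice, so the p-values do not measure spread among pools of the same condition. They measure how far the difference between stress and control varied among the 4 pairs, which differ in diet, genotype or experiment. The estimate of that spread also draws on the other genes tested.

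Shank1 was the member with the most regular difference between stress and control pools. In CA1-like nuclei it stood at 960 CPM in Con-Veh and 1526 CPM in Stress-Veh, at 940 and 1416 CPM in Con-PLX and Stress-PLX, at 787 and 1033 CPM in Con-IL-1R1+/+ and Stress-IL-1R1+/+, and at 836 and 921 CPM in Con-nIL-1R1-/- and Stress-nIL-1R1-/-. The stress pool was the higher of each pair, although the 4 control and 4 stress pools overlapped because Stress-nIL-1R1-/- lay below Con-Veh. The fitted log2 fold change was 0.42 ± 0.12 (SE; edgeR, adjusted p = 0.105).

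In CA2/3-like nuclei Shank1 was at 712 and 1235 CPM in the vehicle pair, 663 and 945 CPM in the PLX5622 pair, 596 and 700 CPM in the IL-1R1+/+ pair and 572 and 687 CPM in the nIL-1R1-/- pair, control first. The fitted log2 fold change was 0.42 ± 0.12 (edgeR, adjusted p = 0.0803). It was 0.28 ± 0.11 in DG-like nuclei (adjusted p = 0.282 with edgeR), 0.37 ± 0.11 in INH-like nuclei (adjusted p = 0.236) and 0.41 ± 0.13 in other excitatory-like nuclei (adjusted p = 0.121). Over 5 classes and 4 pairs, the stress pool was higher in 20 of 20 comparisons of single pools, and the counting interval lay above 0 in 19 of them. The classes of a pool share its mice and its libraries, so these 20 values are not independent. Stress exceeded control in all 4 pairs for 10.7% of all genes tested in DG-like, 13.1% in CA1-like, 12.4% in CA2/3-like, 8.61% in INH-like and 10.2% in other excitatory-like nuclei. In CA2/3-like nuclei Shank1 passed in 4 of 17 alternatives. The edgeR adjusted p was 0.0320 without Con-IL-1R1+/+ and 0.0307 without Stress-IL-1R1+/+. Either fit takes the IL-1R1+/+ pair, which had the smallest Shank1 ratio in this class, out of the stress estimate, so the 2 are 1 choice. The edgeR adjusted p was 0.0301 without the low-count filter, and Shank1 also passed with DESeq2.

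Side by side, the Shank1 log2 ratio of stress to control in the genotype experiment was 0.38 (95% counting interval 0.27 to 0.49) for IL-1R1+/+ and 0.07 (-0.04 to 0.17) for nIL-1R1-/- in DG-like nuclei. In CA1-like nuclei it was 0.39 (0.32 to 0.47) and 0.14 (0.07 to 0.21), and in CA2/3-like nuclei 0.23 (0.15 to 0.31) and 0.27 (0.18 to 0.35). The nIL-1R1-/- ratio was thus the smaller in DG-like and CA1-like nuclei but not in CA2/3-like nuclei. These intervals cover counting error only. In a fit added after seeing the data, with a stress term for the diet experiment and one for each genotype and 1 residual degree of freedom, the Shank1 response in nIL-1R1-/- minus that in IL-1R1+/+ was -0.32 ± 0.36 (SE) on the log2 scale in DG-like, -0.25 ± 0.29 in CA1-like and 0.01 ± 0.26 in CA2/3-like nuclei (edgeR adjusted p = 1.00 in each). No member passed this test in any class, where 0.0157%, 0.00818%, 0.00774%, 0.0% and 0.0175% of all genes did in DG-like, CA1-like, CA2/3-like, INH-like and other excitatory-like nuclei and 0.0994% in all neurons. At an unadjusted p under 0.05 the members numbered 0 of 8 in each of the 5 classes, against 2.31%, 2.11%, 1.79%, 1.76% and 3.09% of all genes, and 1 of 8 in all neurons (Homer3), against 3.07%. The sums over all neurons also held nuclei outside the 5 classes, in unequal numbers. Excitatory-like nuclei named by Slc17a6 markers numbered 1599 (control) and 80 (stress) for IL-1R1+/+, against 32 and 44 for nIL-1R1-/-. Medium spiny-like nuclei numbered 0 and 284 for IL-1R1+/+. Whether this make-up has a part in the all-neuron values, that of Homer3 included, was not tested. In the diet experiment the Shank1 log2 ratio in CA1-like nuclei was 0.67 (0.60 to 0.74) for vehicle and 0.59 (0.44 to 0.74) for PLX5622. In DG-like nuclei it was 0.41 (0.31 to 0.51) and 0.38 (0.20 to 0.57). The intervals of the 2 diets overlapped in CA1-like and in DG-like nuclei. In CA2/3-like nuclei the ratio was larger for vehicle than for PLX5622, and there the intervals did not overlap.

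Shank2, the longest of the Shank genes, had control and stress pools that did not overlap in DG-like and CA1-like nuclei. In CA1-like nuclei the controls were at 791 (Con-Veh), 666 (Con-PLX), 697 (Con-IL-1R1+/+) and 729 CPM (Con-nIL-1R1-/-), and the stress pools at 1089, 940, 914 and 845 CPM in the same order. Every stress pool lay above every control pool, as it did for 2.23% of all genes tested there. The fitted log2 fold change was 0.36 ± 0.11 (edgeR, adjusted p = 0.136).

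In DG-like nuclei the Shank2 controls lay between 496 and 553 CPM and the stress pools between 577 and 671 CPM, a separation shared by 1.78% of genes, with 2.07% separated the other way. The fitted log2 fold change was 0.20 ± 0.10 (edgeR, adjusted p = 0.468). It was 0.28 ± 0.11 in CA2/3-like, 0.17 ± 0.11 in INH-like and 0.38 ± 0.14 in other excitatory-like nuclei, with edgeR adjusted p values of 0.207, 0.724 and 0.210. The stress pool was higher in 19 of 20 class and pair comparisons, the exception being the nIL-1R1-/- pair in INH-like nuclei (391 CPM control, 367 CPM stress). In other excitatory-like nuclei the call changed with the shallow PLX5622 pools left out, to a Shank2 log2 fold change of 0.50 (edgeR adjusted p = 0.0496) and a Shank1 log2 fold change of 0.47 (adjusted p = 0.0480).

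Shank3, whose human counterpart is linked to autism, had lower fitted values than Shank1 and Shank2 in DG-like, CA1-like and CA2/3-like nuclei. For Shank3 the stress pool was higher in 17 of 20 class and pair comparisons. Its fitted log2 fold change was 0.03 ± 0.13 in CA1-like, 0.07 ± 0.11 in DG-like, 0.19 ± 0.12 in CA2/3-like, 0.21 ± 0.11 in INH-like and 0.40 ± 0.14 in other excitatory-like nuclei (edgeR adjusted p from 0.169 to 0.948). In INH-like nuclei the controls were at 109, 104, 102 and 111 CPM and the stress pools at 143, 111, 128 and 114 CPM, in the order vehicle, PLX5622, IL-1R1+/+, nIL-1R1-/-. They did not overlap, which 1.3% of genes tested in that class also showed, but the lowest stress pool was less than 1 CPM above the highest control pool.

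Homer3 had the largest fitted RSD values of the members in DG-like, CA1-like and CA2/3-like nuclei. In CA2/3-like nuclei, where it is most abundant, it was at 47.8 CPM in Con-Veh and 81.5 CPM in Stress-Veh, at 37.6 and 75.9 CPM in the PLX5622 pair, at 42.2 and 66.9 CPM in the IL-1R1+/+ pair and at 39.8 and 44.2 CPM in the nIL-1R1-/- pair. Stress was higher in all 4 pairs, and the ratio was smallest in the nIL-1R1-/- pair. Its log2 value was 0.15 (95% counting interval -0.19 to 0.48) against 0.66 (0.38 to 0.95) for IL-1R1+/+, and these intervals overlapped. In the fit with a stress term for each genotype, the Homer3 response in nIL-1R1-/- minus that in IL-1R1+/+ was -0.54 ± 0.40 (SE) on the log2 scale in CA2/3-like nuclei (edgeR adjusted p = 1.00).

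The fitted log2 fold change of Homer3 in CA2/3-like nuclei was 0.58 ± 0.15 (edgeR, adjusted p = 0.0581). It passed in 4 of 17 alternatives. Without Con-nIL-1R1-/- or without Stress-nIL-1R1-/- the value was 0.76 in both fits (edgeR adjusted p = 0.0243 and 0.0130). Either fit takes the nIL-1R1-/- pair, which had the smallest ratio, out of the stress estimate, so the 2 are 1 choice. With doublets left out the value was 0.62 (adjusted p = 0.0419), and without the low-count filter it was 0.56 (adjusted p = 0.0332). In DG-like nuclei the fitted value was 0.92 ± 0.27 (edgeR adjusted p = 0.174), and Homer3 passed in 3 of 17 alternatives. The value was 1.21 without Con-nIL-1R1-/- or without Stress-nIL-1R1-/- (adjusted p = 0.0242 and 0.0198), again 1 choice. In CA1-like nuclei the fitted value was 0.95 ± 0.25 (adjusted p = 0.0851), and Homer3 passed in 3 of 16 alternatives. The value was 1.10 without Con-IL-1R1+/+ (edgeR adjusted p = 0.0499) or without Stress-IL-1R1+/+ (0.0413), which both take out the IL-1R1+/+ pair.

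Counts behind Homer3 were small outside CA2/3-like nuclei. Its control pools stood at 2.49 to 8.66 CPM in DG-like and 4.17 to 11.5 CPM in CA1-like nuclei, near the 10.3 CPM of oligodendrocyte-like nuclei. Con-PLX had 2 UMIs in DG-like nuclei and 3 in CA1-like nuclei, against 23 and 10 in Stress-PLX, which gave log2 ratios with intervals of 1.02 to 6.17 and 0.03 to 4.49. The overlapping Ddx49 had fitted RSD values of 0.10, 0.19 and -0.04 in DG-like, CA1-like and CA2/3-like nuclei and was called in none of them.

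Homer2, by contrast, had no common direction. Its fitted log2 fold change was -0.27 ± 0.13 in CA1-like nuclei (edgeR adjusted p = 0.335), -0.17 ± 0.14 in CA2/3-like, 0.25 ± 0.15 in DG-like and 0.05 ± 0.11 in INH-like nuclei. In CA1-like nuclei the values, control first, were 168 and 176 CPM for vehicle, 188 and 128 CPM for PLX5622, 196 and 169 CPM for IL-1R1+/+ and 207 and 157 CPM for nIL-1R1-/-. The vehicle pair thus differed in direction from the other 3, and stress was higher in 9 of 20 class and pair comparisons.

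Dlg2 was the member with lower values after RSD. Among CA2/3-like nuclei Dlg2 had 6023 CPM in Con-Veh and 4294 CPM in Stress-Veh, stood at 7098 and 4822 CPM in the PLX5622 pair, at 6063 and 5782 CPM in the IL-1R1+/+ pair and at 6858 and 5814 CPM in the nIL-1R1-/- pair. Every stress pool lay below every control pool, as for 2.93% of all genes tested in that class. The fitted log2 fold change was -0.37 ± 0.11 (edgeR, adjusted p = 0.103), and -0.47 without Con-IL-1R1+/+ or without Stress-IL-1R1+/+ (adjusted p = 0.0121 and 0.0115). Either fit takes the IL-1R1+/+ pair, which had the smallest Dlg2 step in this class, out of the stress estimate, so they are not separate results. Dlg2 passed in 3 of 17 alternatives in CA2/3-like nuclei.

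The fitted log2 fold change of Dlg2 was -0.36 ± 0.12 in CA1-like, -0.24 ± 0.12 in DG-like and -0.21 ± 0.10 in INH-like nuclei, with edgeR adjusted p values of 0.153, 0.470 and 0.593. In these 4 classes stress was below control in all 4 pairs, as for 9.51% of genes in DG-like, 11.0% in CA1-like, 10.9% in CA2/3-like and 8.24% in INH-like nuclei. Other excitatory-like nuclei differed, with stress above control in both pairs of the genotype experiment and a fitted value of 0.00 ± 0.17. The IL-1R1+/+ pair there was at 5413 CPM in the control and 7548 CPM in the stress pool. The share of other excitatory-like nuclei in the larger of their 2 clusters was 37.6% and 77.3% in those 2 pools. In the nIL-1R1-/- pair it was 62.6% and 78.7%, control first. In the larger cluster alone the fitted value was -0.18 (edgeR adjusted p = 0.707).

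The lower Dlg2 values were more marked in the diet experiment. In CA1-like nuclei the log2 ratio was -0.36 (95% counting interval -0.40 to -0.32) for vehicle and -0.64 (-0.70 to -0.57) for PLX5622, against -0.17 (-0.20 to -0.14) for IL-1R1+/+ and -0.15 (-0.18 to -0.13) for nIL-1R1-/-. The interaction of RSD with experiment for Dlg2 was -0.36 ± 0.15 in CA1-like nuclei (edgeR, adjusted p = 0.223). It was -0.41 ± 0.13 in CA2/3-like nuclei (edgeR, adjusted p = 0.102) and -0.72 ± 0.24 in other excitatory-like nuclei (adjusted p = 0.456). Long genes in general moved the same way. Genes with spans over 500 kb, as Dlg2 has, had median interactions of -0.28, -0.27 and -0.25 in these 3 classes. The part of gene span in the interaction was not tested. No member passed the interaction test in any class, where 0.034%, 1.97%, 1.31%, 0.0% and 0.019% of all genes did in DG-like, CA1-like, CA2/3-like, INH-like and other excitatory-like nuclei and 0.0% in all neurons. At an unadjusted p under 0.05 the members numbered 1, 2, 3, 1 and 1 of 8 in the same classes and 1 in all neurons, against 7.55%, 13.5%, 12.7%, 8.08%, 8.09% and 10.6% of all genes.

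Dlgap1 had fitted RSD values close to 0, and the fitted values of Dlg4 were above 0 in all 5 classes. For Dlg4 they ran from 0.04 ± 0.11 in INH-like to 0.22 ± 0.13 in other excitatory-like nuclei, and stress was higher in 15 of 20 class and pair comparisons. The widest step in CPM was in CA1-like nuclei of the vehicle pair, from 274 to 360 CPM, while the nIL-1R1-/- pair there was at 207 and 215 CPM. For Dlgap1 the fitted values ran from -0.10 ± 0.11 in CA2/3-like to 0.06 ± 0.12 in DG-like nuclei, and stress was higher in 11 of 20 comparisons. Dlgap1 was lower after stress in the PLX5622 pair of all 5 classes, as in DG-like nuclei (7436 CPM in Con-PLX, 6789 CPM in Stress-PLX), and higher in the vehicle pair of all 5 classes (5599 CPM in Con-Veh, 6065 CPM in Stress-Veh in DG-like nuclei).

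**Figure D2:**
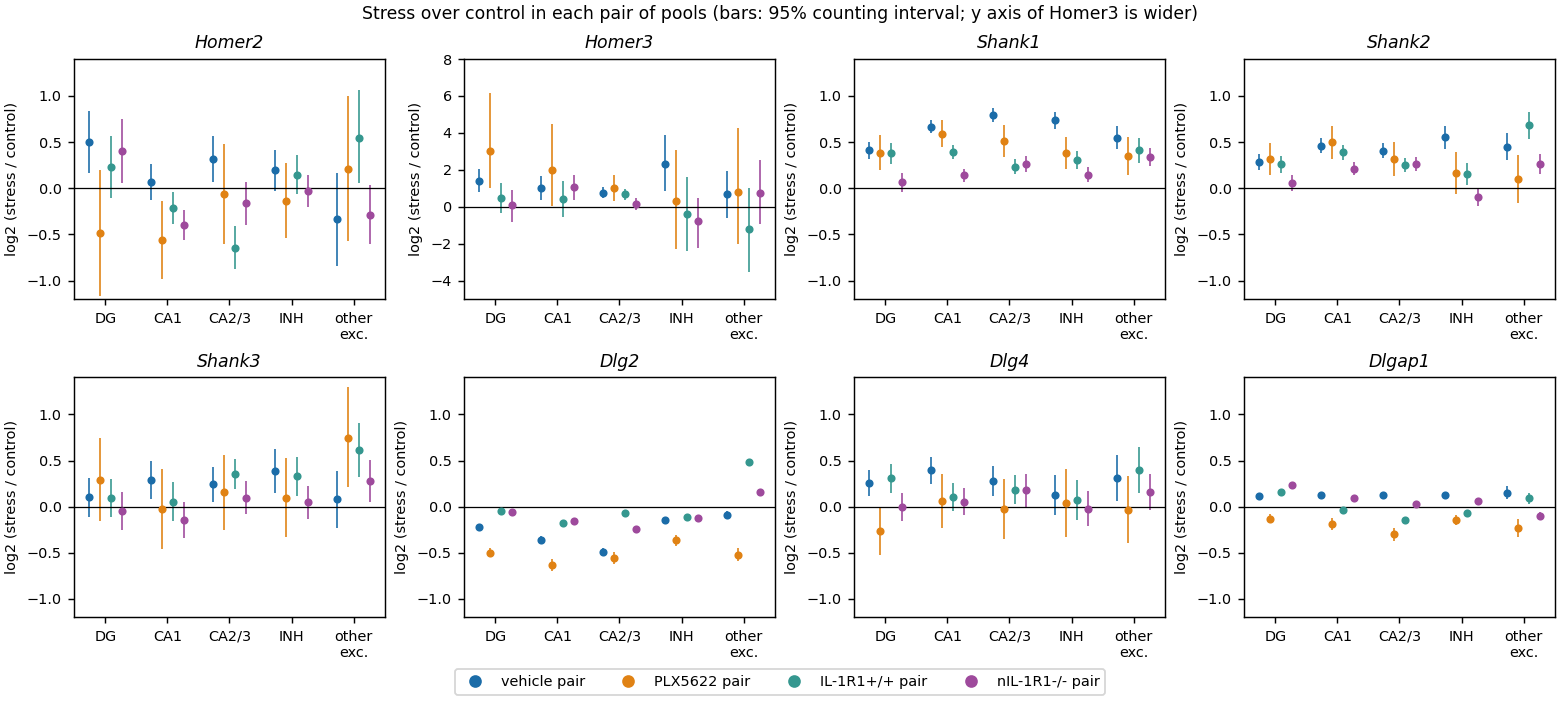
Log2 ratio of stress to control CPM (y axis, wider for Homer3) in 5 neuron classes (x axis) for each of the 4 pairs of pools, with 95% exact counting intervals as bars. Shank1 points lie above 0 in 20 of 20 comparisons, and Dlg2 points lie below 0 in 18 of 20.

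Gene span moved with the RSD values and is given beside them. In CA1-like nuclei the median fitted log2 fold change of all tested genes was 0.20 for spans under 10 kb, 0.05 for 10 to 50 kb, -0.06 for 50 to 200 kb, -0.09 for 200 to 500 kb and -0.18 for over 500 kb. In DG-like nuclei the same medians ran from 0.11 to -0.13 and in CA2/3-like nuclei from 0.19 to -0.18. Dlg2, in the longest bin, differed in the direction of its bin, as did Homer3 in the 10 to 50 kb bin. Dlgap1, in the same bin as Dlg2, lay above the bin median, at 0.06 in DG-like, -0.03 in CA1-like and -0.10 in CA2/3-like nuclei. Shank1 and Shank2, in the 50 to 200 kb and 200 to 500 kb bins, had positive values where the medians of their bins were negative. The part of gene span in these results was not tested.

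**Figure D3:**
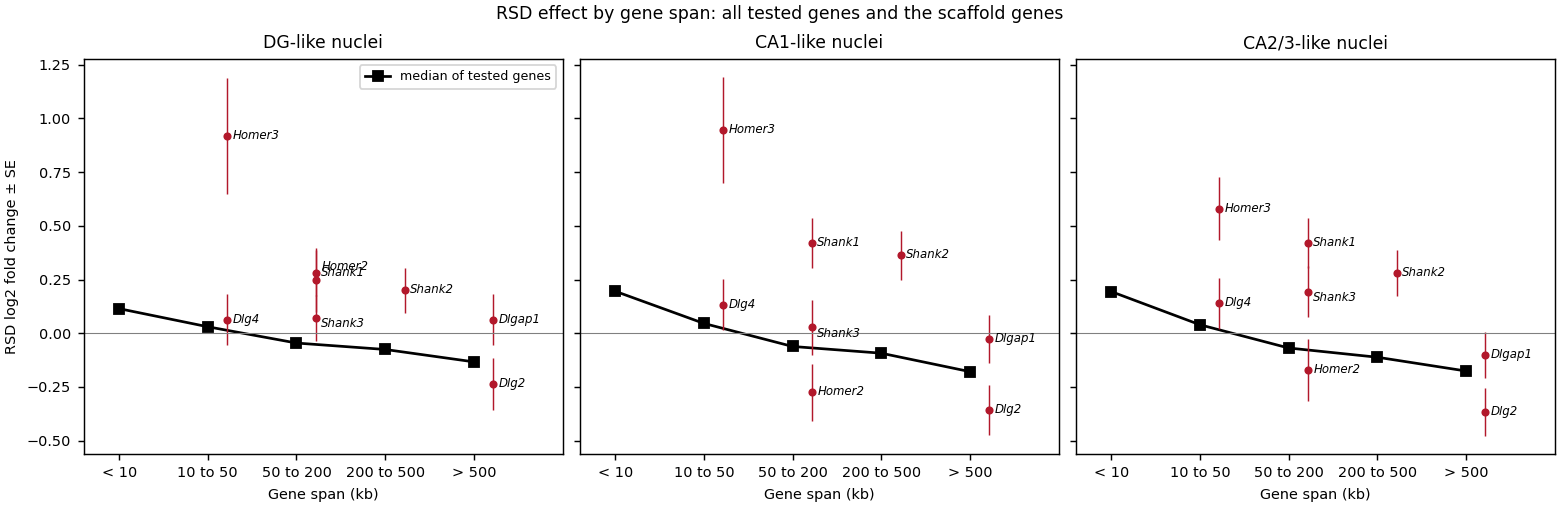
Fitted RSD log2 fold change (y axis) by gene span in kb (x axis) in DG-like, CA1-like and CA2/3-like nuclei; squares joined by a line are medians of all tested genes in each bin, and points with SE bars are the scaffold genes. The medians go from positive to negative with span. Shank1, Shank2, Shank3, Homer3, Dlg4 and Dlgap1 sit above the line and Dlg2 sits below it. Homer2 sits above it in DG-like nuclei and below it in CA1-like and CA2/3-like nuclei.

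Depth also moved with the groups, with fewer UMIs per nucleus in the PLX5622 pools, in Stress-Veh (1325.5) than in Con-Veh (2563) and in Stress-nIL-1R1-/- (2580) than in Con-nIL-1R1-/- (5012). The stress pool was slightly the deeper in the IL-1R1+/+ pair (3098.5 control, 3218.5 stress) and in the PLX5622 pair (598 and 628). Once all nuclei were thinned to 500 UMIs each, the fitted RSD log2 fold change of Shank1 was 0.53 in CA1-like, 0.47 in CA2/3-like and 0.25 in DG-like nuclei, and that of Dlg2 was -0.37, -0.36 and -0.24. Thinning left out 466 and 598 DG-like nuclei in Con-PLX and Stress-PLX and 0 to 296 in the other pools. The DG-like class drew 34.1% and 29.7% of its nuclei from the deeper of its 2 clusters in Con-PLX and Stress-PLX, against 63.5% to 97.1% in the other pools. In the deeper cluster alone the fitted values in DG-like nuclei were 0.26 for Shank1, 0.18 for Shank2, 0.82 for Homer3 and -0.20 for Dlg2.

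The effect of PLX5622 was compared over the control and stress pools of the diet experiment. Its SE and p-values come from the fit over all 8 pools, genotype pools included, and no diet was repeated in another pair. They do not measure spread among pairs of the same diet. Dlgap1 was the member with the highest fitted values, 0.35 ± 0.17 in DG-like, 0.24 ± 0.16 in CA1-like, 0.31 ± 0.15 in CA2/3-like, 0.31 ± 0.14 in INH-like and 0.26 ± 0.20 in other excitatory-like nuclei on the log2 scale. In DG-like nuclei it was at 5599 and 6065 CPM on vehicle and 7436 and 6789 CPM on PLX5622, control first, so both PLX5622 pools were above both vehicle pools (edgeR, adjusted p = 0.670). Without Stress-PLX the value was 0.56, which rests on Con-PLX alone for PLX5622. Shank2 was lower on PLX5622 in CA2/3-like nuclei, at 595 and 743 CPM against 795 and 1054 CPM, a log2 difference of -0.39 ± 0.15 (edgeR, adjusted p = 0.976).

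No member passed the diet test in any class with edgeR or with DESeq2. Of all genes tested, 0.0935% passed in DG-like, 0.0338% in CA2/3-like and 0.0471% in INH-like nuclei, and 0.0% in CA1-like and other excitatory-like nuclei and in all neurons. Here 1 member in each of DG-like, CA2/3-like and INH-like nuclei had an unadjusted p under 0.05, against 7.31%, 4.92% and 5.82% of all genes. No member did in CA1-like, other excitatory-like or all neurons, where 4.42%, 4.73% and 5.77% of genes did. The PLX5622 pools were also the shallowest, and genes over 500 kb such as Dlgap1 had a median diet difference of 0.11 in DG-like and 0.18 in CA2/3-like nuclei, so diet and depth cannot be told apart here.

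The deletion of the receptor was compared over the control and stress pools of the genotype experiment. As for diet, the SE and p-values come from the fit over all 8 pools. They do not measure spread among pairs of the same genotype, since no genotype was repeated in another pair of this experiment. No member passed in any class with edgeR or with DESeq2, and 0.0085% of genes in DG-like and 0.00951% in other excitatory-like nuclei did, with 0.0% in the other 3 classes and in all neurons. Fitted log2 differences, nIL-1R1-/- minus IL-1R1+/+, lay between -0.28 ± 0.19 and 0.99 ± 0.65, with both of these extremes in Homer3. Homer2 in other excitatory-like nuclei was the 1 value of 40 with an unadjusted p under 0.05, at 33.7 and 49.3 CPM in IL-1R1+/+ against 65.8 and 54.0 CPM in nIL-1R1-/- (log2 0.50 ± 0.23; edgeR, adjusted p = 1.00). Of all genes, 2.14% had such a p there, against 2.07% in DG-like, 1.5% in CA1-like, 1.88% in CA2/3-like and 2.07% in INH-like nuclei and 2.72% in all neurons, none of which held a member. For Shank1 the differences were -0.02 ± 0.16 in CA1-like, -0.02 ± 0.16 in CA2/3-like and 0.11 ± 0.15 in DG-like nuclei, where Il1r1 itself was lower.

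**Figure D4:**
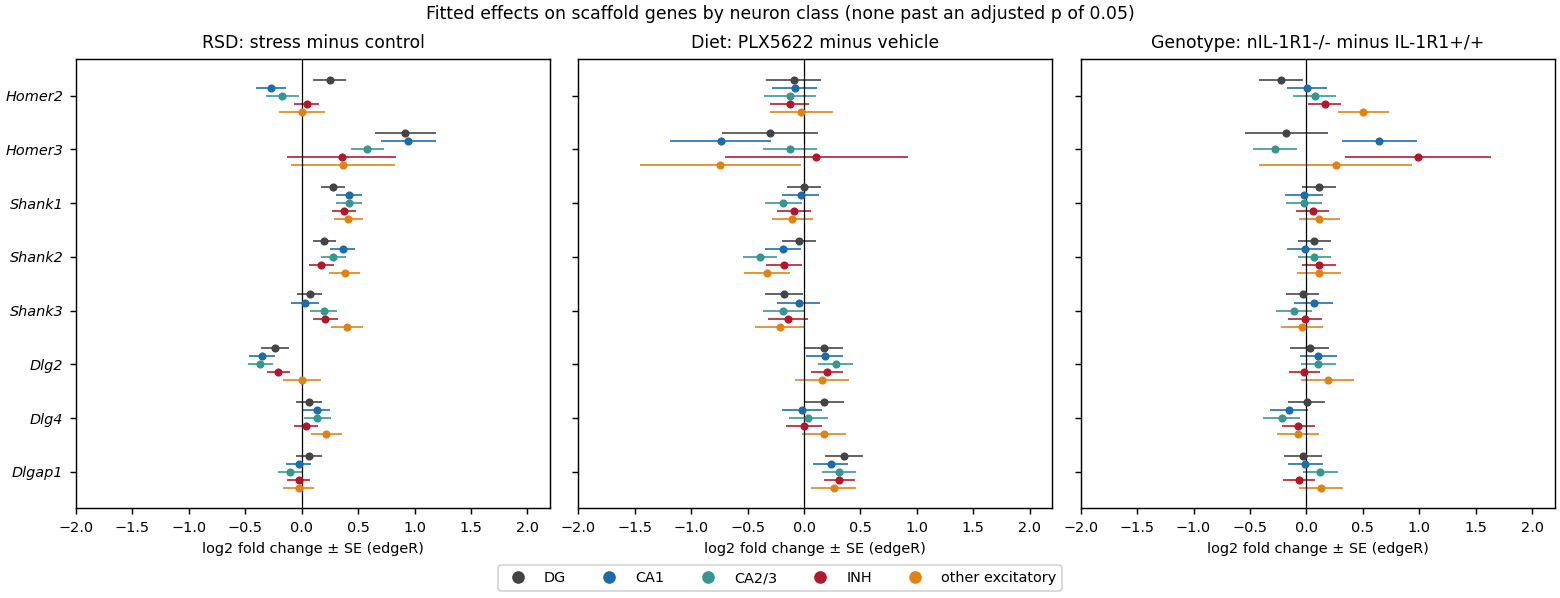
Fitted log2 fold change with its SE (x axis) of each scaffold gene (y axis) for RSD, diet and genotype, in 5 neuron classes by colour. Shank1, Shank2, Shank3, Homer3 and Dlg4 lie to the right of 0 in all classes under RSD. Dlgap1 and Dlg2 do so under diet, and no value passes an adjusted p of 0.05.

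Other postsynaptic genes were read from 2 lists, 24 partners of the excitatory density and 6 scaffold genes of inhibitory synapses. No excitatory partner passed the RSD test with edgeR in DG-like (23 tested), CA1-like or INH-like nuclei. Their calls in the other 2 classes are not reported here. At an unadjusted p under 0.05 they numbered 4 of 23 in DG-like and 6, 6, 4 and 9 of 24 in CA1-like, CA2/3-like, INH-like and other excitatory-like nuclei, against 11.7%, 14.8%, 15.0%, 8.4% and 13.9% of all genes. The median fitted log2 fold change of the excitatory partners was -0.05, -0.04, -0.02, 0.05 and 0.10 in the same 5 classes, beside 0.14, 0.08, 0.17, 0.11 and 0.29 for the 8 scaffold genes. None of the 6 inhibitory scaffold genes passed the RSD test in any class. At an unadjusted p under 0.05 they numbered 3, 3, 2, 2 and 0 of 6 in the same 5 classes, beside the same shares of all genes. Their median fitted log2 fold change was 0.12, 0.07, 0.07, -0.03 and 0.12. Neither list had a gene past the diet or genotype test.

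In the interaction of RSD with experiment, Gphn (gephyrin, which anchors glycine and GABA receptors) passed in CA1-like nuclei, with a log2 difference of 0.57 ± 0.16 (edgeR, adjusted p = 0.0421). It was at 952 and 1911 CPM in the vehicle pair and 1114 and 1774 CPM in the PLX5622 pair, against 905 and 1087 CPM and 966 and 1128 CPM in the IL-1R1+/+ and nIL-1R1-/- pairs. Gphn was also a top gene of an unnamed cluster of 4678 shallow nuclei (median 427 UMIs), outside the CA1-like class. Con-PLX gave 1670 of these nuclei and Stress-PLX 1640. Whether nucleus quality has a part in the Gphn interaction was not tested. Homer1, the third Homer gene, passed in other excitatory-like nuclei, at -1.78 ± 0.29 (edgeR, adjusted p = 0.0397). Its stress pools were at 505 and 537 CPM in the genotype experiment, where the other 6 pools lay between 98.2 and 214 CPM. With nuclei thinned to 500 UMIs the interaction was 0.71 for Gphn (edgeR adjusted p = 0.0880) and -1.82 for Homer1 (edgeR adjusted p = 0.135), and in the larger cluster alone it was -1.68 for Homer1 (edgeR adjusted p = 0.152).

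Genes whose level was most like each member were named over 59 sums of a neuron class and a pool, among 6102 genes, by Pearson's r of log2(CPM + 1). These points share libraries and depth, and r is a description with no test. Dlg2 was most like Csmd1 (r = 0.96) and Grm5 (r = 0.91), which encodes a group I metabotropic receptor. Dlg4 was most like Epn2 (r = 0.92), Dlgap1 like Tnr (0.85) and the NMDA receptor gene Grin2a (0.80), and Shank2 like Prkag2 (0.77). The best match of Homer2 was Slc24a3 (0.79), that of Homer3 was Slit1 (0.70) and that of Shank3 was Ddx41 (0.67). Dgkz, which encodes a diacylglycerol kinase, was among the 3 most alike for both Shank1 (0.76) and Shank2 (0.76).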

How the data were processed

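Nuclei were barcoded with the Parse Biosciences kit and sequenced by the authors, aligned to GRCm39 (mm39) with the Parse pipeline and handled in Seurat (v4.1.1). The deposited matrices hold UMI counts per gene and nucleus, not normalised, with the pool of each nucleus, and whether counting used the strand was not given in the sources used here. Nuclei over 20% mitochondrial UMIs were left out. The members and the lists were chosen with earlier results of these data known.

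Nuclei were clustered with leidenalg 0.10.2 on a graph of shared neighbours (2000 variable genes without the members, 30 components, 20 neighbours, Leiden resolution 1.0). A cluster was named from at least 3 markers of a class at 0.2 or more of their level in the highest cluster. Among its top 10 genes, markers of that class had to be present and at least as many as those of any other class. The requirement that compares its own markers with those of other classes was set after the clusters were seen. Doublets were kept in the main fits, and the 6% of nuclei per pool with the highest Scrublet score were left out as an alternative. UMI counts were summed per class and pool. The sums were tested with edgeR 4.0.16 (TMM, filterByExpr, quasi-likelihood, R 4.3.3), with pair and stress as terms, 3 residual degrees of freedom (2 for the interaction, 1 for the response by genotype, which was added after seeing the data) and Benjamini-Hochberg adjustment over all genes of a class, and the test was checked on simulated data. The MAST test over nuclei of the study was not used, because nuclei are not replicates. DESeq2 1.42.0 was an alternative. A pair shares diet or genotype, so its 2 pools were blocked by design, and the correlation of deviations within a pair was 0.0696 to 0.221. Class sums ran from 513875 to 7832751 UMIs. The 95% intervals are exact Poisson or binomial intervals that cover counting error only. Named genes were all members, partners past an adjusted p of 0.05 (up to 3 per direction) and the 3 genes most alike each member among those of at least 20 CPM. Positions come from a GENCODE annotation of GRCm39, which held 56017 of the 56748 gene IDs. Results for 2 genes that these rules name are not reported here.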

Additional observations from a re-analysis of the deposited data

Results flagged for a closer look

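Of 80 groups of 4 pools (a member in a class, control or stress), 5 held a pool that stood apart by Dixon's test at the 95% level, where chance gives about 1 in 20. Shank2 in INH-like nuclei was at 525 CPM in Stress-Veh and 367 to 388 CPM in the other stress pools. Shank3 in DG-like nuclei was at 86.1 CPM in Con-PLX and 105 to 108 CPM in the other control pools. Dlg2 in INH-like nuclei was at 5228 CPM in Con-Veh and 5987 to 6136 CPM in the other controls. Dlgap1 stood apart in 2 classes, at 6789 CPM in Stress-PLX in DG-like nuclei (6065 to 6137 CPM in the other stress pools) and at 3645 CPM in Stress-IL-1R1+/+ in CA2/3-like nuclei (4100 to 4171 CPM).

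The response to RSD differed between the diet and the genotype experiment for 2 partner genes. The interaction was 0.57 on the log2 scale for Gphn in CA1-like nuclei (edgeR adjusted p = 0.0421, 0.0240 to 0.0880 over its 3 alternatives). It was -1.78 for Homer1 in other excitatory-like nuclei (edgeR adjusted p = 0.0397, 8.866e-09 to 0.152 over its 4 alternatives). The share of other excitatory-like nuclei in the larger cluster was 77.3% and 78.7% in the 2 stress pools with high Homer1 and 37.6% to 66.7% in the other pools. In the larger cluster alone the Homer1 interaction was -1.68 (edgeR adjusted p = 0.152).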

How the results depend on the processing

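No member passed an adjusted p of 0.05 for RSD with edgeR as reported, and the number that passed moved with a few choices. Without the low-count filter it was 1 in DG-like, 3 in CA1-like and 3 in CA2/3-like nuclei, and 1 for the interaction with experiment in other excitatory-like nuclei. In CA2/3-like nuclei it was 1 with DESeq2 and 1 with doublets left out. In other excitatory-like nuclei it was 1 in the larger cluster alone and 2 with the PLX5622 pools left out, both chosen after seeing the data. With 1 pool left out in turn, the lone pool of that pair only fits its own level. The number for RSD then ran from 0 to 1 in DG-like and CA1-like and 0 to 2 in CA2/3-like and other excitatory-like nuclei. Diet values with a pool of the diet experiment left out rest on 1 pool of a diet, so their calls are not counted. Without the pair term (no replicate block) it was 0 in all 5 classes and in all neurons. At 2.0 in place of 1.0 Leiden resolution, the CA1-like level of Homer2 was 141 CPM and that of Dlgap1 5552 CPM. The cause of these moves was not tested. For the response to RSD by genotype it was 0 in every class under the 4 alternatives run (another scaling, no low-count filter, thinned nuclei, nIL-1R1-/- against the other 3 pairs). Of 689 RSD values of members recomputed under the alternatives, 45 had the opposite sign to the value as reported. Among the 258 of these with an unadjusted p under 0.05 as reported, 1 did. Those 258 were picked by p from the same pools and repeat each picked result under several alternatives. A kept sign among them is therefore not a separate test of direction.

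The number of all genes called for RSD moved more, from 9 as reported to between 0 and 170 in DG-like, 10 (0 to 245) in CA1-like, 59 (1 to 303) in CA2/3-like, 4 (0 to 63) in INH-like and 192 (13 to 330) in other excitatory-like nuclei. With nuclei thinned to 500 UMIs the interaction calls went from 219 to 20 in CA1-like and from 155 to 11 in CA2/3-like nuclei. Scaling by DESeq2's size factors moved the RSD median of all genes by -0.00887 to 0.00402 on the log2 scale. Homer3 counts in the PLX5622 pools were too few for a stable ratio outside CA2/3-like nuclei.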
